A study of Mus musculus with 6 samples.

Results

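The activin and Gdf11 system of embryonic mouse pancreas was followed through 9 genes: the ligand genes Inhba, Inhbb and Gdf11, the follistatin genes Fst, Fstl3 and Fstl1, and the activin receptor genes Acvr1b, Acvr2a and Acvr2b. Members were chosen by name, as the probe sets that the platform annotation pairs with 1 of these symbols alone. This gave 17 of 45037 probe sets, and 9 of 18193 genes. A further probe set that names Acvr2a together with another gene was not used. Whole pancreas of Hox6 null embryos at E12.5 (3 arrays) was compared with wild type pancreas of the same day, labelled control (3 arrays), with Bl6 given as the strain of both. Hox6 stands for the homeobox genes of the sixth paralogous group, Hoxa6, Hoxb6 and Hoxc6, which in the embryonic pancreas are active in mesenchyme. Each sample was amplified from 10 ng of RNA and hybridised to its own array. The labels do not say how many embryos or litters stand behind a sample, so p-values here reflect how far these samples spread.

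Activins are dimers of inhibin beta subunits. They bind a type II receptor, which then phosphorylates a type I receptor, and the signal passes through Smad2 and Smad3. Gdf11, a close relative of myostatin, shares these receptors. Follistatin, the product of Fst, wraps around activin and Gdf11 and keeps them from the receptors. In the embryonic pancreas, activin-type ligands are known for patterning of the foregut endoderm and loss of Gdf11 for an excess of endocrine progenitors.

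The arrays of the null group were less alike than those of the control group. Correlations across all probe sets were 0.980 to 0.987 among null arrays and 0.994 to 0.995 among control arrays. Null 1 and null 2 had a higher mean level of epithelial markers than the other 4 arrays: the mean log2 level of 14 epithelium markers was 9.50 in null 1 and 9.37 in null 2, against 8.54 in null 3 and 8.48 to 8.56 in control arrays. Of the 14 markers, 13 had a positive mean difference between null and control, while that of Krt19 was -0.20. The defining pancreatic gene Pdx1 was measured at 9.97, 9.63 and 8.78 in null arrays and at 8.62, 8.24 and 8.27 in control arrays. Of the pancreatic progenitor markers, which include Pdx1, 7 of 7 had a positive mean difference, and in 5 the null and control arrays did not overlap. Ptf1a and Foxa2 overlapped, with null 3 at -0.11 and -0.17 from the control mean. Of the endocrine lineage markers 10 of 10 had a positive mean difference, and 3 did not overlap. Over all genes, 10180 of 18193 had a positive mean difference, and 23.8% did not overlap, so the endocrine share without overlap lies near that of all genes. In whole tissue, more cells of a type and more RNA per cell cannot be told apart. Values are log2 expression per probe set after RMA, a normalization across arrays; medians of the 6 arrays lay between 5.97 and 6.02, and background signal can understate the changes of dim probe sets. No background level was measured for single probe sets here.

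None of the 9 genes passed the test for a difference between Hox6 null and control pancreas, and none of the 17 probe sets did (limma, Benjamini-Hochberg adjusted p under 0.05). Of all genes 0.0715% passed, and of all probe sets 0.00222%. The largest mean differences were a lower Fst and a higher Fstl3 and Acvr1b in null pancreas, and these genes differed in which arrays carried the change. At an unadjusted p under 0.05 there were 2 of 9 member genes, against 17% of all genes, and 3 of 17 member probe sets, against 15% of all probe sets. The null and control arrays did not overlap for 3 of 9 genes, against 23.8% of all genes, and for 4 of 17 probe sets, against 22% of all probe sets. These shares lie near those of all features. The median log2 difference of the 9 genes was +0.051, beside +0.033 over all genes.

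**Figure D1:**
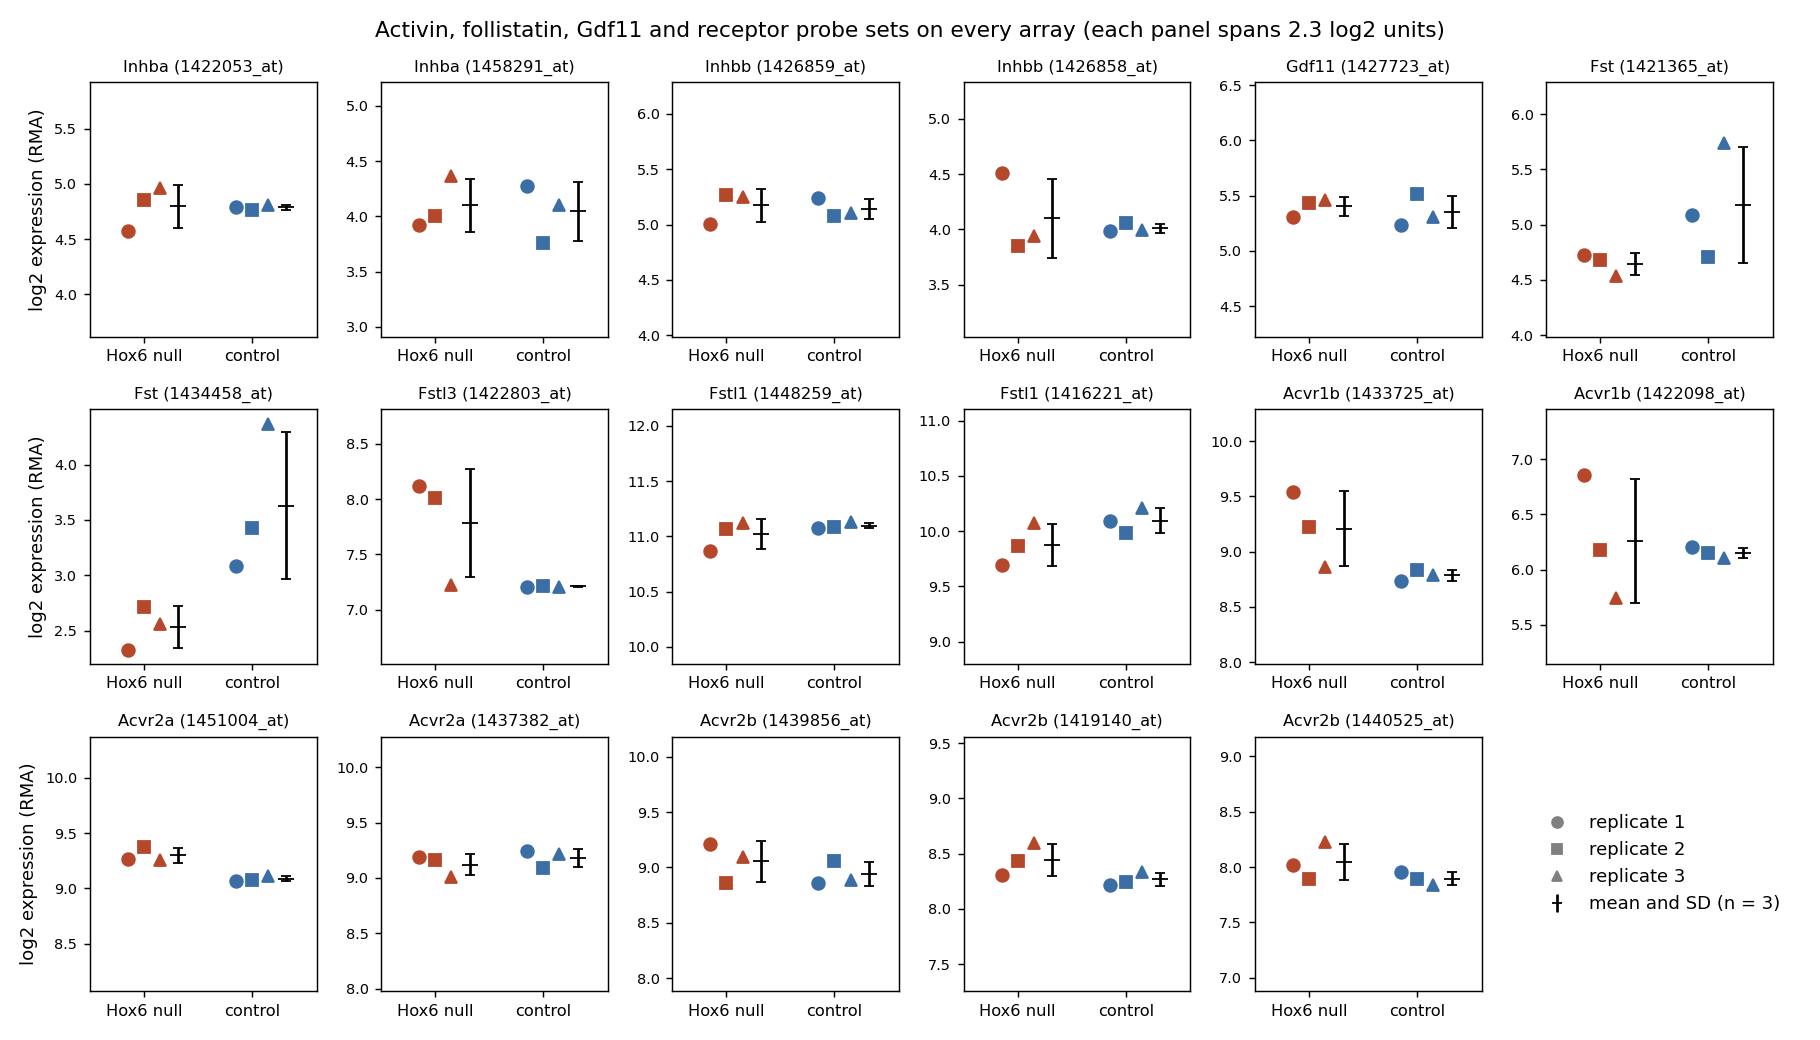
Log2 expression of each of the 17 member probe sets on the 3 Hox6 null arrays (red, left) and the 3 control arrays (blue, right), with mean and SD beside each group; every panel spans the same number of log2 units. Fstl3 is high in null 1 and null 2 and level with the controls in null 3, while the controls of Fst are spread out and control 3 stands highest.

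The activin subunit genes showed little difference between the genotypes. Inhba encodes the beta A subunit, which forms activin A. Its brighter probe set (1422053_at) read 4.58, 4.85 and 4.96 in null arrays, against 4.79, 4.76 and 4.81 in control arrays. The control values lay inside the range of the null values. The log2 difference was +0.0079 ± 0.13 (SE), with an interval of -0.29 to 0.30 at 95% confidence (limma, adjusted p = 0.981 over all probe sets). The other Inhba probe set (1458291_at) spread from 3.92 to 4.37 in null arrays and from 3.76 to 4.28 in control arrays, so its groups overlapped almost completely.

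Inhbb encodes the beta B subunit of activin B. Its probe set 1426859_at read 5.003, 5.27 and 5.25 in null arrays, against 5.24, 5.08 and 5.10 in control arrays, a difference of +0.034 ± 0.12 (SE; limma, adjusted p = 0.908). The dimmer probe set 1426858_at read 4.51, 3.85 and 3.94 in null arrays, against 3.98, 4.06 and 3.99 in control arrays. There null 1 alone stood above the controls, and null 2 and null 3 stood below them. The interval of the difference ran from -0.24 to 0.31 for the first probe set and from -0.33 to 0.50 for the second.

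Gdf11, the ligand gene whose loss in mice enlarges the pool of endocrine progenitors, had 1 probe set. It read 5.31, 5.43 and 5.46 in null arrays, against 5.24, 5.51 and 5.30 in control arrays. All null values lay within the range of the controls. The difference was +0.051 ± 0.12 (SE), with an interval of -0.22 to 0.32 (limma, adjusted p = 0.852). All 5 ligand probe sets lay below the array medians on every array.

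The follistatin genes held the largest differences in both directions. Fst encodes follistatin itself. Its brighter probe set (1421365_at) read 4.73, 4.68 and 4.53 in null arrays, against 5.09, 4.71 and 5.74 in control arrays. The null arrays were close together and control 2 lay among them, while control 1 and control 3 lay above. Every value lay below the median of its array. The mean was 4.65 ± 0.10 in null and 5.18 ± 0.52 in control arrays (SD, n = 3 each), a difference of -0.53 ± 0.24 (SE), or 1.45-fold lower (limma, adjusted p = 0.357 over all probe sets and 0.322 over all genes). Without control 3 the difference was -0.25.

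The second Fst probe set (1434458_at) pointed the same way, at dimmer levels. It read 2.33, 2.71 and 2.56 in null arrays, against 3.08, 3.43 and 4.37 in control arrays. Every null array lay below every control array. All null values, and those of control 1 and control 2, were below the lower quartile of their array, and only control 3 was above it. The difference was -1.10 ± 0.31 (SE), 2.14-fold, and did not pass (limma, unadjusted p = 0.00822, adjusted p = 0.230). Without control 3 it was -0.73. In both probe sets control 3 held the highest value of all 6 arrays.

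Marker lists of 5 cell types also had lower mean levels in all null arrays: mesenchyme, mesothelium, endothelium, macrophages and erythroid cells. The mean log2 level of 13 mesenchyme markers was 8.97, 9.03 and 9.08 in null arrays, against 9.55, 9.60 and 9.55 in control arrays, and 13 of 13 had a negative difference. Their median difference was -0.33, and single differences ran from -2.12 (Lum) to -0.083 (Nkx3-2). In null 3, Nkx3-2 and Tcf21 lay above the control mean, by 0.39 and 0.055. For 8 mesothelium markers the mean level was 5.77, 5.85 and 6.46 in null arrays, against 7.02, 6.99 and 7.20 in control arrays, with 7 of 8 negative. The mean level of 9 endothelium markers was 7.91 to 8.24 in null and 8.63 to 8.73 in control arrays, with 9 of 9 negative. It was 7.42 to 7.93 in null and 8.41 to 8.53 in control arrays for 8 macrophage markers (8 of 8 negative), and 6.10 to 6.51 in null and 7.12 to 7.18 in control arrays for 6 erythroid markers (6 of 6 negative). Over all genes, 8013 of 18193 differences were negative. Whether these cell types had a part in the lower Fst was not tested. With the epithelium marker level as a covariate the Fst difference was -0.67 ± 0.35 (SE; limma, adjusted p = 0.549). That fit mainly sets the null array whose epithelium marker level was like that of the controls against the controls. Its covariate is also not a level of the cell types above, so it does not test their part in the lower Fst.

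Fstl3, which encodes a secreted follistatin-like antagonist of activin and is itself induced by activin and TGF-beta in human cells, showed the opposite direction and another pattern over arrays. Its 1 probe set (1422803_at) read 8.12, 8.01 and 7.23 in null arrays, against 7.21, 7.22 and 7.21 in control arrays. Null 1 and null 2 stood well above the controls, while null 3 exceeded the highest control by little. The mean was 7.78 ± 0.49 in null and 7.21 ± 0.0051 in control arrays (SD, n = 3 each). The difference was +0.57 ± 0.23 (SE), 1.49-fold, with an interval of 0.046 to 1.10 (limma, unadjusted p = 0.0367, adjusted p = 0.310). The groups did not overlap, but the result rests on null 1 and null 2.

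The 250 bases upstream of the start of Fstl3 are shown with those of Acvr1b, the other member whose brighter probe set was highest in null 1 and null 2 and close to the controls in null 3. Both come from RefSeq (GRCm38.p6, plus strand, chr10:79777024-79777273 for Fstl3 and chr15:101173822-101174071 for Acvr1b). Capitals mark the box CAGAC, the short sequence to which Smad3 and Smad4 bind, or its reverse complement GTCTG.
Fstl3: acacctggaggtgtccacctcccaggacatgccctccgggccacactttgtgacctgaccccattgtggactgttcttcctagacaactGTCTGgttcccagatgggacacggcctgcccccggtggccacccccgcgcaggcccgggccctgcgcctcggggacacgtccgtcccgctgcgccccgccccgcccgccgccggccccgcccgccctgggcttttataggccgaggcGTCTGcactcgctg
Acvr1b: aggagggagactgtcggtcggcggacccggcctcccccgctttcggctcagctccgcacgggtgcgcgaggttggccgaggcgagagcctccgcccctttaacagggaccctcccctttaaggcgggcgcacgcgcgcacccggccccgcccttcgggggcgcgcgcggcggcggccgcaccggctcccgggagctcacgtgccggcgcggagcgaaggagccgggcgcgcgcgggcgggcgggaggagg
The box occurred 2 times in the Fstl3 window and 0 times in that of Acvr1b. Over the windows of all 32851 promoters in the table, 42.2% held it on either strand, as did those of 3 of the 8 members matched (Fstl3, Acvr2a and Acvr2b). The homeodomain core TAAT (or ATTA) stood in 1 member window, that of Inhba, against 54.9% of all windows, and the Hox-Pbx sequence TGATNNAT (either strand; it can overlap TAAT) in 0, against 7.68%. GC content was 71.2% for Fstl3, 78.8% for Acvr1b and 43.2% for Inhba, beside a median of 52.4% over all windows. A match describes the letters and is not evidence of binding.

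Removing null 3, the array at the level of the controls, changed the call for Fstl3. Over all genes the adjusted p of Fstl3 was 0.275 with all arrays (limma). Without null 3 the difference was +0.85 ± 0.096 (SE) and passed over all genes (limma, adjusted p = 0.00999), as did 8.44% of them. The difference also passed over all probe sets (limma, adjusted p = 0.0172), as did 4.22% of them. Without null 1 it was +0.41 and without null 2 +0.46, and neither passed (adjusted p = 0.451 and 0.463). With the epithelium marker level as a covariate it was +0.0060 ± 0.12 (SE; limma, adjusted p = 0.994). That fit mainly sets null 3 against the controls, so it cannot separate an epithelial share from null 3 being level with them. The offsets of Fstl3 from the control mean were 0.90, 0.80 and 0.016 in null 1, null 2 and null 3. Median offsets of the epithelium markers were 0.95, 0.92 and 0.024 in the same order. The pattern was not particular to that list: median offsets were 1.21, 0.95 and 0.29 for pancreatic progenitor markers. For endocrine lineage markers they were 0.82, 0.87 and 0.085.

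**Figure D2:**
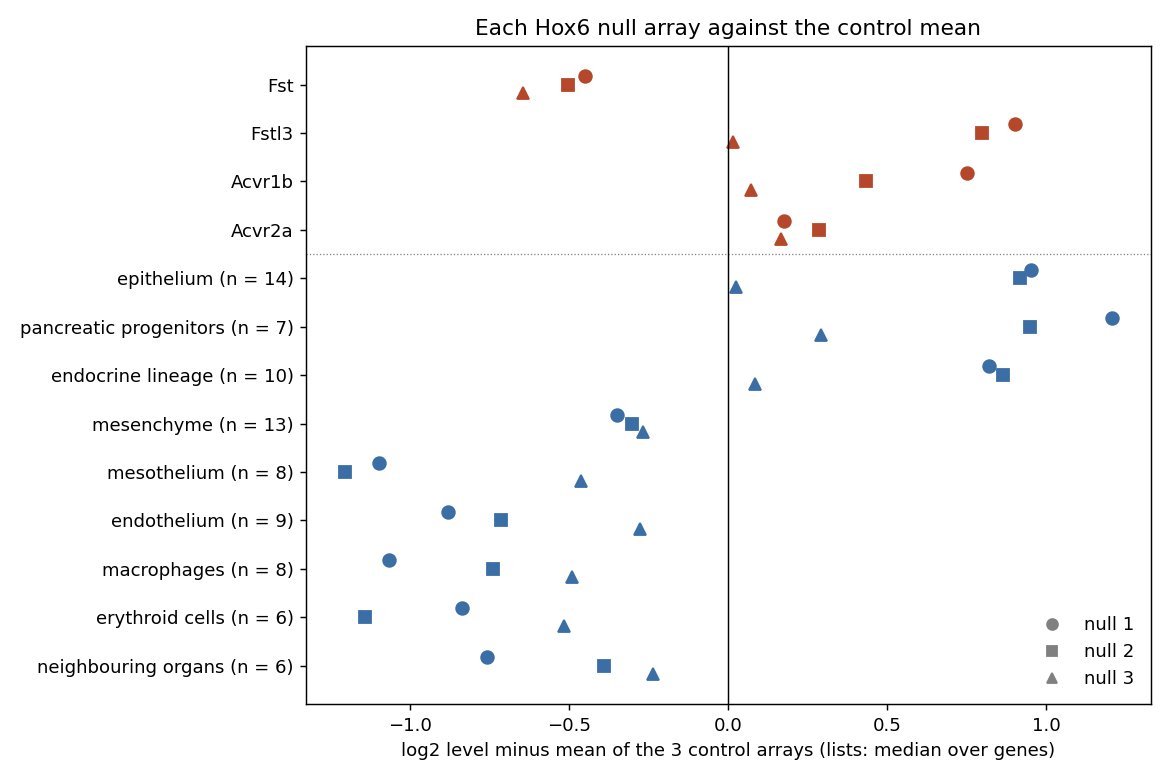
Log2 level of each Hox6 null array minus the mean of the 3 control arrays, for 4 member genes (red) and as the median over the genes of each cell type marker list (blue). Fstl3 and Acvr1b are highest in null 1 and near 0 in null 3, as are the epithelium markers, whereas Fst is below 0 in all 3 null arrays, as are the medians of the mesenchyme, mesothelium, endothelium, macrophage, erythroid and neighbouring organ markers.

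Fstl1 encodes a secreted glycoprotein that carries a follistatin domain and is made by mesenchyme. Probe set 1448259_at read 10.87, 11.07 and 11.12 in null arrays, against 11.08, 11.09 and 11.13 in control arrays. Only null 1 stood apart, below the others. The difference was -0.077 ± 0.11 (SE; limma, adjusted p = 0.753). Probe set 1416221_at read 9.69, 9.87 and 10.07 in null arrays, against 10.09, 9.98 and 10.21 in control arrays, a difference of -0.22 ± 0.13 (SE; adjusted p = 0.461). Without null 1 the difference of the brighter probe set was -0.00057. Both probe sets were lowest in null 1, and their intervals reached down to -0.34 and -0.53 on the log2 scale.

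Among the receptors, Acvr1b came closest to the pattern of Fstl3. Acvr1b encodes ALK4, the type I receptor of activin. Probe set 1433725_at read 9.54, 9.22 and 8.86 in null arrays, against 8.73, 8.83 and 8.79 in control arrays. All null values lay above all control values, by a wide margin in null 1 and a narrow one in null 3. The mean was 9.21 ± 0.34 in null and 8.79 ± 0.051 in control arrays (SD, n = 3 each), a difference of +0.42 ± 0.17 (SE), 1.34-fold (limma, unadjusted p = 0.0433, adjusted p = 0.321).

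The second Acvr1b probe set did not separate the groups. Probe set 1422098_at read 6.86, 6.18 and 5.74 in null arrays, against 6.20, 6.15 and 6.11 in control arrays. Null 1 was the highest and null 3 the lowest of all arrays. Its difference was +0.10 ± 0.26 (SE; limma, adjusted p = 0.864). In both probe sets the null arrays stood in the same order. Averaged over both probe sets the gene differed by +0.26 (adjusted p = 0.528). By the brighter probe set the difference was +0.25 without null 1. Over all genes the adjusted p was 0.283 with all arrays (limma). Without null 3 the gene passed, at +0.59 ± 0.12 (SE; limma, adjusted p = 0.0392), as did 8.44% of all genes. Over all probe sets no Acvr1b probe set passed in that fit. With the epithelium marker level as a covariate the difference was +0.052 ± 0.15 (SE; adjusted p = 0.935). In that covariate fit, which mainly sets null 3 against the controls, the second probe set stood at -0.47.

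The type II receptor genes were measured at similar levels in both genotypes. Acvr2a encodes a type II receptor shared by activins, Gdf11 and several BMPs. Probe set 1451004_at read 9.26, 9.37 and 9.25 in null arrays, against 9.07, 9.08 and 9.11 in control arrays. The groups did not overlap and all 3 null arrays were alike, so that here no single null array carried the difference. It was small, +0.21 ± 0.098 (SE), 1.16-fold (limma, unadjusted p = 0.0664, adjusted p = 0.361). The other Acvr2a probe set (1437382_at) read 9.19, 9.16 and 9.01 in null arrays, against 9.24, 9.09 and 9.22 in control arrays, with a difference of the opposite sign, -0.063 ± 0.11 (SE; adjusted p = 0.797). Averaged over both probe sets the gene differed by +0.074.

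Acvr2b encodes the second type II receptor of the group. Its probe set 1439856_at read 9.21, 8.86 and 9.10 in null arrays, against 8.86, 9.06 and 8.89 in control arrays. Probe set 1419140_at read 8.30, 8.43 and 8.60 in null arrays, against 8.22, 8.25 and 8.34 in control arrays, and probe set 1440525_at 8.02, 7.90 and 8.22, against 7.96, 7.89 and 7.84. The groups overlapped in each of the 3. The differences were +0.12, +0.18 and +0.15, with adjusted p of 0.681, 0.484 and 0.565 (limma), and no interval reached above 0.45. Leaving out single arrays moved the first of these between +0.038 (without null 1) and +0.22 (without null 2).

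**Figure D3:**
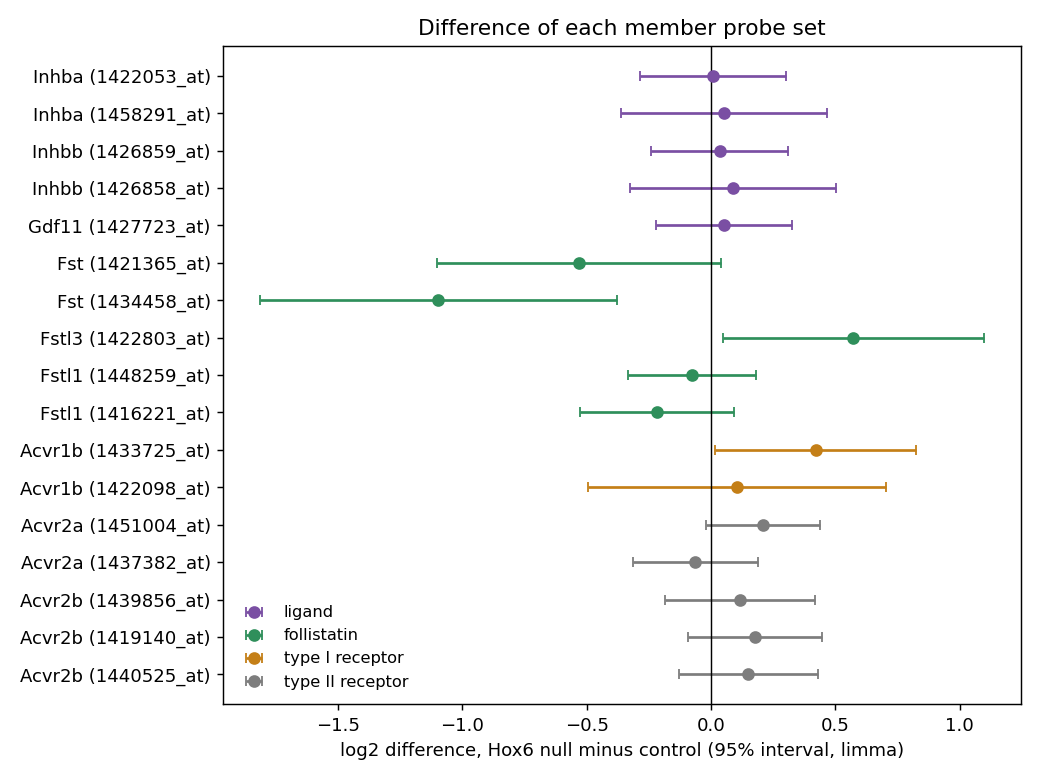
Log2 difference (Hox6 null minus control) of each member probe set with its 95% interval from limma, coloured by role. The intervals of the ligand and type II receptor probe sets include 0; those of 1 Fst, the Fstl3 and 1 Acvr1b probe set do not, before adjustment over all probe sets.

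The null arrays varied more than the control arrays in most members. The SD over null arrays was larger in 13 of 17 member probe sets, against 71.1% of all probe sets. Both Fst probe sets were among the exceptions, with SDs of 0.10 and 0.19 in null and 0.52 and 0.67 in control arrays.

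Other genes of the pathway were examined by role. The 6 lists held 53 genes, of which 49 were measured. Of these 0 passed over all genes (limma), 6 had an unadjusted p under 0.05 (17% of all genes did) and 12 had arrays that did not overlap (23.8% of all genes). The median difference of the 49 was +0.046, with 27 positive and 22 negative. By list, 0 of 5 further ligands, 0 of 7 receptors and co-receptors, 0 of 12 antagonists and follistatin-domain genes, 0 of 6 genes of precursor processing, 0 of 12 intracellular mediators and 0 of 7 target genes passed in either direction.

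The largest difference among them was that of Spock1, a proteoglycan gene with a follistatin-like domain. It read 6.48, 7.45 and 7.13 in null arrays, against 5.96, 5.56 and 5.47 in control arrays. All null arrays lay above all control arrays, and null 3 among the higher. The difference was +1.36 ± 0.25 (SE; limma, unadjusted p = 0.00102, adjusted p = 0.128). It passed with array weights, at +1.45 (limma, adjusted p = 0.0486), where 0.852% of all genes passed. It also passed without null 3, at +1.30 (limma, adjusted p = 0.0452), where 8.44% of all genes passed. In the same list Sparc, an abundant matrix protein gene of mesenchyme, differed by -0.19 (adjusted p = 0.352).

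Further ligand and receptor genes gave small differences. Inhbe, a beta subunit gene known mainly from liver, read 3.80, 3.58 and 3.52 in null arrays, against 3.37, 3.19 and 3.10 in control arrays. Its groups did not overlap, and the levels were below the lower quartile of every array (difference +0.41 ± 0.12, SE; limma, adjusted p = 0.204). Inhbc, its close relative, differed by +0.28 with overlapping arrays. Tgfbr3, the betaglycan co-receptor, read 8.10, 8.77 and 8.68 in null arrays, against 8.86, 8.97 and 8.89 in control arrays, a difference of -0.39 ± 0.18 (SE; adjusted p = 0.319). Acvr1, a type I receptor that mainly serves BMPs, differed by -0.31 with overlapping arrays (adjusted p = 0.350).

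Processing, mediator and target genes followed. Furin, a protease that cleaves ligand precursors, differed by +0.18 (adjusted p = 0.387) and Tll2, a metalloprotease of the tolloid family, by +0.22 (adjusted p = 0.351). The Smad co-repressor gene Ski read 10.39, 10.44 and 10.50 in null arrays, against 10.66, 10.72 and 10.68 in control arrays. Its groups were apart and all null arrays were lower, by a difference of -0.24 ± 0.089 (SE; limma, adjusted p = 0.255). Smad2, the receptor-activated mediator, differed by -0.18 (adjusted p = 0.386).

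The target genes with the smallest p went opposite ways. Cdkn1a, a cell cycle inhibitor gene that also answers to p53, read 8.12, 8.26 and 7.50 in null arrays, against 7.50, 7.04 and 7.26 in control arrays. Null 1 and null 2 were the high arrays, as for Fstl3, and the difference was +0.70 ± 0.22 (SE; limma, adjusted p = 0.217). Without null 3 it passed (limma, adjusted p = 0.0212), as did 8.44% of all genes. Ccn2, a matricellular gene, read 6.77, 6.81 and 6.68 in null arrays, against 6.94, 7.16 and 7.35 in control arrays. All null arrays were below the controls, by -0.40 ± 0.13 (SE; adjusted p = 0.221).

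**Figure D4:**
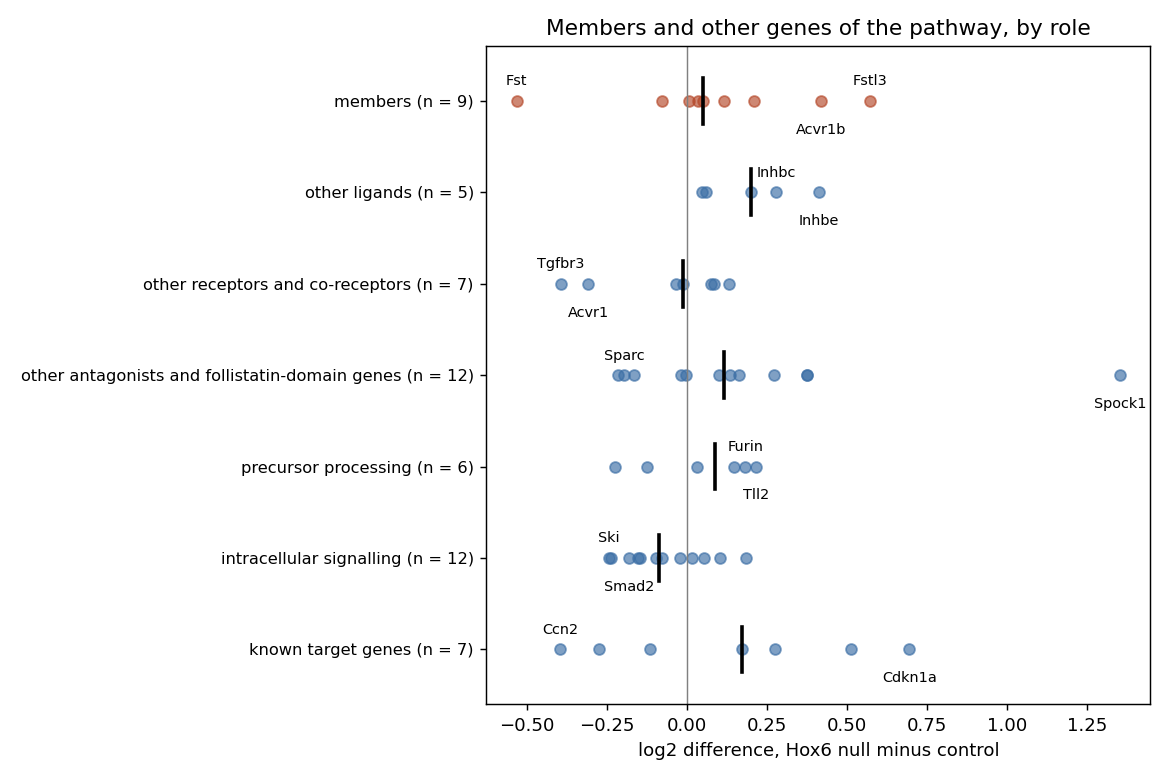
Log2 difference (Hox6 null minus control) of the 9 members (red) and of other pathway genes by role (blue); each point is a gene, black bars are medians and the labelled genes are those described in the text. Most genes lie near 0, and Spock1 lies farthest out at +1.36.

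Genes with the profile most like that of a member were sought over the 6 arrays for the 3 members with the largest mean differences. Likeness was the root mean square difference between log2 profiles, each centred on its own mean. The nearest genes are the smallest of many such values, so lying below the median follows from the choice. The median is given for scale. For Fstl3 the nearest were Otud3 (0.059), Tmem171 (0.063) and Epcam (0.064), against a median of 0.43 over 9095 genes. Otud3 read 10.25, 10.14 and 9.48 in null arrays, against 9.49, 9.44 and 9.38 in control arrays. Tmem171 read 7.55, 7.60 and 6.68, against 6.77, 6.78 and 6.81. Neither is on the epithelium list. Epcam, an adhesion molecule of epithelia and one of the epithelium markers, read 11.37, 11.16 and 10.48 in null arrays, against 10.51, 10.34 and 10.41 in control arrays.

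For Fst the nearest were Fmod (0.11), Wnt5a (0.15) and Lipt2 (0.15), against a median of 0.41. Fmod, a small leucine-rich proteoglycan gene, read 8.13, 8.27 and 8.10 in null arrays, against 8.65, 8.41 and 9.13 in control arrays. Wnt5a, a noncanonical Wnt ligand gene, read 8.52, 8.64 and 8.50 in null arrays, against 9.15, 8.93 and 9.53 in control arrays. Lipt2 read 7.95, 7.96 and 7.70 in null arrays, against 8.26, 7.90 and 8.55 in control arrays. As in the brighter Fst probe set, on which they were chosen, control 3 was the highest and control 2 the lowest control; in the other Fst probe set control 1 was the lowest. For Acvr1b the nearest were Acot8 (0.046), Hip1r (0.054) and Rassf5 (0.054), against a median of 0.33.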

How the data were processed

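Whole pancreas RNA of 3 Hox6 null and 3 control samples was measured on 6 arrays. The deposited values are log2 expression for each probe set. RMA, affy and limma are named, per the submitters' processing notes, with no version, and a genome build is not given in the sources used here. Of 45101 probe sets, 64 array controls were left out, 34945 had 1 gene symbol, 932 several and 9160 none listed. Genes were represented by the singly named probe set of highest mean level across the arrays. Differences (Hox6 null minus control) were fitted with limma 3.58.1 (lmFit, eBayes) in R 4.3.3 on the deposited values, two-sided, with Benjamini-Hochberg adjustment over all probe sets or all genes and a threshold of 0.05. The script was tested on simulated data. The number of arrays limits the precision, and no detection calls were used.

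The members and gene lists were chosen with earlier results of these data known. Named are all members, the 2 genes with the smallest p in each of 6 pathway lists, and the 3 nearest profiles, among genes above the median mean level, of the 3 members with the largest difference. Alternatives changed the filter, normalization, variance prior, array weights, block, covariate, probe set choice, threshold and arrays. Promoter windows, from RefSeq, were found for 8 of 9 members.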

Additional observations from a re-analysis of the deposited data

How the results depend on the processing

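With the alternatives tried, members passed in 1 fit only, that without null 3 (limma), where 2 member genes, 1 member probe set and 3 other pathway genes passed beside 8.44% of all genes and 4.22% of all probe sets; leaving out single arrays gave 0 to 2 member genes, 0 to 1 member probe sets and 0 to 3 other pathway genes. With array weights 1 other pathway gene passed (Spock1). A threshold of 0.1, applied to the main fit only, added none. With array weights the adjusted p over all genes was 0.0727 for Fstl3 and 0.0977 for Acvr1b (limma), between 0.05 and 0.1. With the replicate block 0 members passed and Fstl3 stayed at +0.57 (adjusted p = 0.256). Same-numbered arrays deviated from their group means with correlations of 0.14, 0.0049 and 0.062 not all above 0.1; each null array correlated best with its own number, but control 2 correlated better with null 3 (0.054) than with null 2. The labels state no pairing, so the numbers were not taken to pair the samples. Small differences changed sign. Repeated quantile normalization gave -0.062 and -0.049 for the Inhba probe sets and -0.020 and -0.0079 for those of Inhbb, median centring -0.0038 for Inhba, and array weights -0.047 for the dimmer Inhba probe set. The epithelium covariate gave +0.043 for Fstl1, -0.12 for the dimmer Inhbb and -0.47 for the dimmer Acvr1b probe set. Leaving out single arrays spanned -0.073 to 0.12 and -0.093 to 0.17 for Inhba, -0.013 to 0.12 and -0.11 to 0.21 for Inhbb, -0.0065 to 0.13 for Gdf11 and -0.20 to 0.36 for the dimmer Acvr1b probe set. The cause of these changes was not tested. Background signal, which was not measured per probe set, can understate changes of dim probe sets.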

Other observations

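Some markers of neighbouring organs varied between arrays of a group; the 3 given were picked from their list after their values were seen. Alb, the albumin gene of liver, read 6.44, 8.02 and 7.20 in null arrays, against 7.98, 10.60 and 7.25 in control arrays, with control 2 the highest. Sox2, a transcription factor gene of stomach and neural tissue, read 2.57, 2.70 and 5.40 in null arrays, against 3.01, 3.12 and 2.54 in control arrays, with null 3 the highest. Nkx2-5, which marks spleen and pyloric mesenchyme, read 6.10, 5.50 and 7.57 in null arrays, against 7.62, 6.88 and 7.54 in control arrays, lowest in null 1 and null 2. Their relation to the member levels was not tested.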
